A study of Homo sapiens with 6 samples.

Results

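Long noncoding RNAs and the host transcripts of microRNAs were examined in SU-DHL-2 cells, an established diffuse large B-cell lymphoma (DLBCL) line, cultured for 72 h with the cytokine IL-17A at 200 pg/ml (3 samples) or without it (3 control samples). Total RNA of each sample was labeled with Cy3 and hybridized to 1 Agilent Whole Human Genome array, and no genetic change separates the groups. The 9 transcripts listed were MIR155HG, MIR17HG, NEAT1, MALAT1, GAS5, DLEU2, SNHG1, PVT1 and TUG1, and a probe was assigned to one of them when its RefSeq accession mapped to that gene. Of the 19740 genes named on the array 6 were members, measured by 7 of the 34127 probes: 1 each for MIR155HG, MIR17HG, MALAT1, GAS5 and SNHG1, and 2 for PVT1. No probe accession matched NEAT1, DLEU2 or TUG1 in the gene table, which lacks the accessions of 830 probes, so whether the array carries a probe for them is not settled here. These 3 transcripts were not analysed here. The gene table lists 8 of the 9 as long noncoding RNAs, and TUG1 as protein coding. The question was whether 72 h of IL-17A changed the level of these RNAs.

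A microRNA host transcript is a long primary RNA out of which small hairpins are cut by DROSHA and DGCR8, then trimmed by DICER1 to mature microRNAs. A mature microRNA pairs with messenger RNAs mainly through its seed, the stretch near its 5′ end, and lowers their stability and translation. MIR155HG (also known as BIC) and MIR17HG, the host of a cluster running from miR-17 to miR-92a, are known as oncogenic loci in B-cell lymphoma, and DLEU2 hosts miR-15a and miR-16-1 in a region often lost in chronic lymphocytic leukaemia. GAS5 and SNHG1 carry small nucleolar RNAs (snoRNAs) in their introns, and their spliced RNAs are degraded by nonsense-mediated decay. NEAT1 builds paraspeckles and MALAT1 lies in nuclear speckles, and PVT1 neighbours the oncogene MYC.

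Selected mature microRNAs of the 3 hosts best known in B-cell malignancies are shown first, because the array measured the host RNA and not these products. They were taken from RefSeq (GRCh38.p14) and are written 5′ to 3′ with the seed, bases 2 to 8, in capitals.
hsa-miR-155-5p: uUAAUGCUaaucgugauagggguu
hsa-miR-17-5p: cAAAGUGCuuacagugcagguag
hsa-miR-20a-5p: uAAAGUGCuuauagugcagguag
hsa-miR-18a-5p: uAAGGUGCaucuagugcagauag
hsa-miR-19a-3p: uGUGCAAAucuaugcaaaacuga
hsa-miR-19b-3p: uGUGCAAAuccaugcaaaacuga
hsa-miR-92a-3p: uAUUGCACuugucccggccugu
hsa-miR-15a-5p: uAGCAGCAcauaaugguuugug
hsa-miR-16-5p: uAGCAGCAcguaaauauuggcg

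The first comes from MIR155HG, at chr21:25573983-25574006 on the plus strand. The next 6 come from MIR17HG on the plus strand of chromosome 13, from miR-17-5p at chr13:91350618-91350640 to miR-92a-3p at chr13:91351361-91351382, and hold 4 distinct seeds. MiR-17-5p and miR-20a-5p share a seed, as do miR-19a-3p and miR-19b-3p. The last pair, from the DLEU2 gene on the minus strand of the same chromosome (miR-16-5p at chr13:50049027-50049048 and miR-15a-5p at chr13:50049167-50049188), also share one. By position in the gene table, DLEU2 also holds MIR3613, whose products are not shown. PVT1 holds 4 further microRNA genes, NEAT1 holds 1, GAS5 holds 11 snoRNA genes and SNHG1 holds 9, and MALAT1 and TUG1 hold none of either kind. None of these small RNA genes had a matched probe, so each result below is about the long RNA at its probe alone.

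Signals were quantile normalized over the arrays and are given as log2 signal. Detection of a probe required the extraction software's flags for a positive, significant signal that stood well above background, which 69.1% to 70.6% of probes carried per array. No spot reached saturation. Limma was run on the 23945 probes with detection on 3 or more arrays, and a Benjamini-Hochberg adjusted p under 0.05 over all of them counted as a call. The labels do not say whether the samples of a group were separate cultures, so the p-values measure the spread between these samples, which may be technical, and 3 arrays per group limit the precision. A probe's brightness also depends on its own sequence, so levels are compared between groups and not between transcripts. One array of the IL-17A group was scanned together with the 3 controls and the other 2 in another scan, so scan and treatment overlap in part. Fitting the scan as a block therefore compares that 1 treated array with the 3 controls.

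Of the 6 tested probes of 5 transcripts, 1 was called, MIR17HG, which was lower with IL-17A. Over all tested probes, 7.59% were called, 4.43% higher and 3.17% lower. The groups did not overlap at 3 of the 6 probes (MIR17HG lower, MALAT1 and SNHG1 higher), where 39.0% of all tested probes showed no overlap, so the count is not a result about these transcripts as a set. None of the 6 passed the fold-change filter of the methods, at least 1.5 with an unadjusted p under 0.05. Of all tested probes, 2.18% passed it (the methods name an FDR threshold as well). In limma, 2 of the 6 had an unadjusted p under 0.05, as did 7495 of all 23945 tested probes. The median log2 difference, IL-17A minus control, was 0.03 over the 6 probes and 0.01 over all tested probes.

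**Figure D1:**
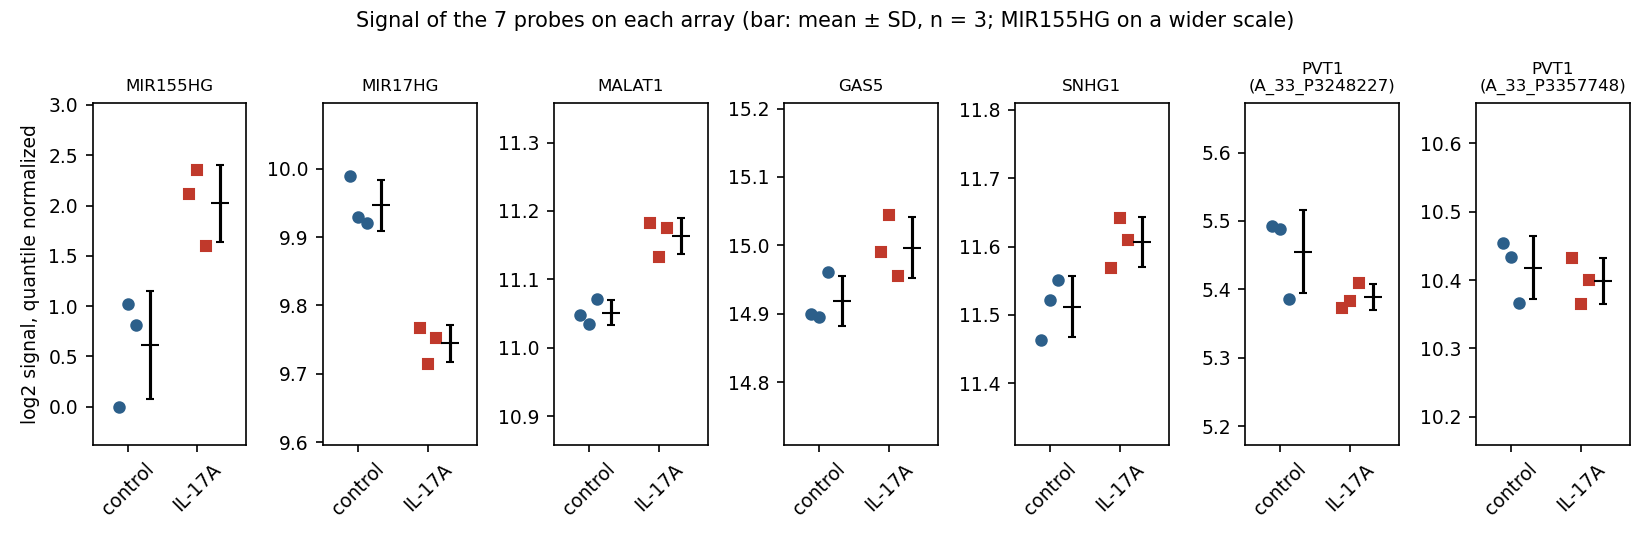
Log2 signal (quantile normalized) of the 7 probes on each control array (circles) and each IL-17A array (squares), with mean ± SD (n = 3) beside the points; the axis of MIR155HG spans a wider range than the others. For MIR17HG the IL-17A arrays lie at 9.71 to 9.77 and the control arrays at 9.92 to 9.99, while both PVT1 probes and GAS5 overlap between the groups.

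MIR17HG read 9.77, 9.71 and 9.75 on the IL-17A arrays and 9.99, 9.93 and 9.92 on the control arrays. All 3 treated arrays lay below all 3 controls. The log2 signal fell by 0.20 (SE 0.04, 95% interval -0.30 to -0.10), from 9.95 ± 0.04 to 9.74 ± 0.03 (SD, n = 3), a change of -13.1% in signal (interval -18.7% to -6.98%), with an adjusted p of 0.0447 in limma. In bulk RNA, fewer cells with a transcript and less of it per cell cannot be told apart. The direction was the same in all 14 alternatives, with a log2 difference between -0.22 and -0.18, and the unadjusted p stayed at or under 0.0275. The call did not hold as well: it was lost in 9 of the 14. The adjusted p in limma was 0.0505 when the arrays were scaled to their 75th percentile and 0.128 with a replicate block. It was 0.0607 to 0.155 when any 1 array was left out. With the scan as a block the difference was -0.18, from 1 treated array against the controls.

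**Figure D2:**
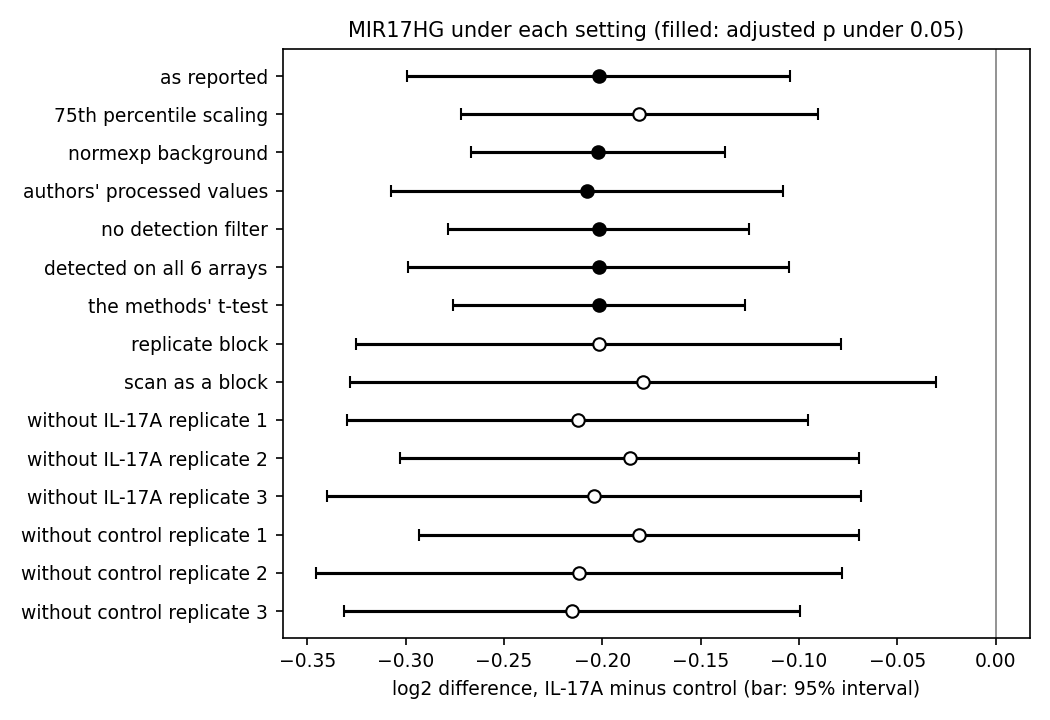
Log2 difference of MIR17HG, IL-17A minus control, with its 95% interval under the reported setting and each of 14 alternatives; filled points have an adjusted p under 0.05. Every point and interval lies below 0, and 9 of the alternatives have open points. The point with the scan as a block rests on 1 treated array against the controls.

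MIR155HG was too dim to be tested. Its log2 signal was 2.12, 2.35 and 1.60 on the IL-17A arrays and 0, 1.02 and 0.81 on the control arrays, where the value of 0 is a signal set to the floor of 1. The treated arrays all read higher, with means of 2.02 ± 0.39 and 0.61 ± 0.54 (SD, n = 3), but the signal was well above background on 1 of the 3 treated arrays and on none of the controls. With 5 of the 6 values not well above background, no fold change is given. In the authors' processed values all 6 arrays lay near the table's lowest log2 value, at 2.33 with IL-17A and 2.32 to 2.33 without.

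GAS5, a growth-arrest-linked RNA that can bind the glucocorticoid receptor, read 14.99, 15.04 and 14.96 with IL-17A and 14.90, 14.90 and 14.96 without. The groups overlapped at the upper end of the controls. The difference was 0.08 (SE 0.04, interval -0.03 to 0.18; adjusted p = 0.266 in limma), or 5.56% in signal with an interval from -1.92% to 13.6%. It turned to -0.06 (adjusted p = 0.499) with 75th percentile scaling, so its direction is not settled.

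SNHG1, the other snoRNA host, read 11.57, 11.64 and 11.61 with IL-17A and 11.46, 11.52 and 11.55 in the controls. The groups did not overlap, though the lowest treated array lay close to the highest control. The difference was 0.09 (SE 0.04, interval -0.01 to 0.20; adjusted p = 0.197), and it was not called in any of the 14 alternatives.

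MALAT1, an abundant nuclear RNA that associates with splicing factors, read 11.18, 11.13 and 11.17 with IL-17A and 11.05, 11.03 and 11.07 in the controls. All treated arrays lay above all controls. The difference was 0.11 (SE 0.04, interval 0.02 to 0.20), or 8.08% in signal (1.62% to 14.9%), with an adjusted p of 0.103 in limma, and it was not called in any of the 14 alternatives.

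PVT1, whose locus is frequently amplified together with MYC in tumours, had 2 probes, reported each on its own. The probe A_33_P3248227 read 5.37, 5.38 and 5.41 with IL-17A and 5.49, 5.49 and 5.39 without, a difference of -0.07 (SE 0.04, interval -0.18 to 0.04; adjusted p = 0.353). The probe A_33_P3357748 read 10.43, 10.36 and 10.40 against 10.45, 10.43 and 10.37, a difference of -0.02 (SE 0.04, interval -0.12 to 0.09; adjusted p = 0.788). The groups overlapped at both probes, and neither was called under any alternative. The sign turned with normexp at both probes, and with the scan as a block at the second. Both intervals lie well inside a 1.5-fold change, as do those of the other tested transcripts.

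**Figure D3:**
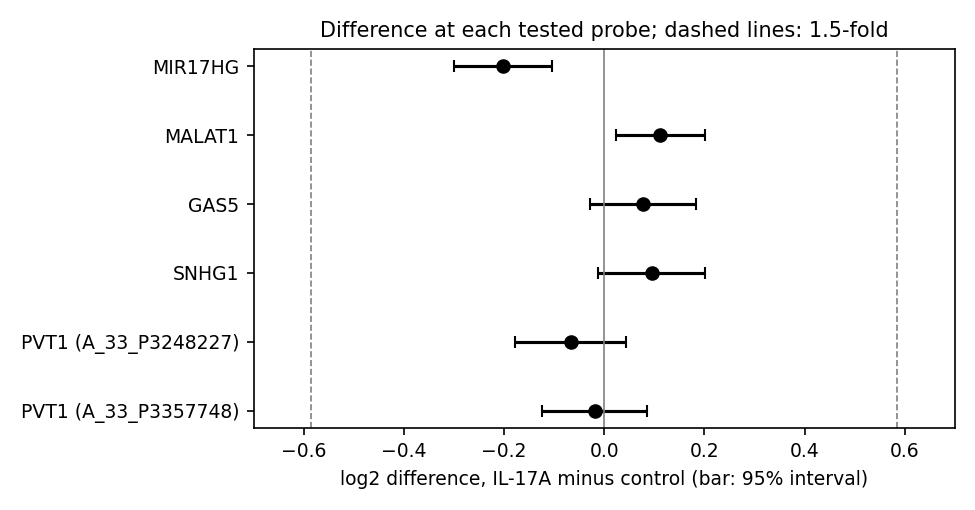
Log2 difference, IL-17A minus control, with its 95% interval from limma at each of the 6 tested probes; dashed lines mark a 1.5-fold change in either direction. MIR17HG at -0.20 and MALAT1 at 0.11 have intervals that leave out 0, and all 6 intervals lie between the dashed lines.

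Genes around these transcripts were then described from fixed lists, a gene being represented by its brightest tested probe. The lists were chosen with earlier results of these data known, so a share above the background is not a test of a list. Of 98 further noncoding or host transcripts listed, 63 had a probe and 50 were tested, and 6 of these (12%) were called, 5 higher and 1 lower. Over all named genes, at 1 probe per gene, 7.85% were called, 4.37% higher and 3.48% lower. An unadjusted p under 0.05 in limma was found for 4686 of the 14747 tested named genes. The lists below are to be read against these shares. Few probes were called over the whole array with the scan or the replicate as a block, or in most fits with 1 array left out. A list without calls in those settings is therefore not a result about that list. With the scan as a block none of the 50 was called, and with 1 array left out 0 to 7 were. Among 18 tested snoRNA hosts, 2 rose and 1 fell, and the median difference was -0.03. EPB41L4A-AS1 rose by 0.28 (SE 0.04, adjusted p = 0.0326 in limma) and SNHG17 fell by 0.23 (adjusted p = 0.0457). SNHG7 rose by 0.32 (SE 0.06, adjusted p = 0.0408), but its other probe read -0.17. SNHG3 was at -0.11 (adjusted p = 0.103). Of 9 other tested microRNA hosts none was called in limma, with 3 at an unadjusted p under 0.05. Closest was LINC-PINT, a p53-induced RNA, at 0.18 (adjusted p = 0.0622). MIR124-2HG stood at 0.18 (adjusted p = 0.157), MIR600HG at -0.14 (adjusted p = 0.158) and MIR9-3HG at -0.19 (adjusted p = 0.320).

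Among 23 other tested long noncoding RNAs, 3 rose and none fell (13.0%, against 4.37% higher over all named genes), with a median of 0.09. With the scan as a block none was called. OIP5-AS1, also called Cyrano, read 10.01, 10.02 and 10.01 with IL-17A and 9.72, 9.74 and 9.75 without, and rose by 0.28 (SE 0.03, adjusted p = 0.0313 in limma). MIAT, a nuclear RNA, read 8.62, 8.70 and 8.60 against 8.28, 8.36 and 8.31, and rose by 0.32 (SE 0.04, adjusted p = 0.0327). CRNDE, which is raised in several cancers, rose by 0.27 (SE 0.05, adjusted p = 0.0355). In these 3 the treated and control arrays were well apart. LINC00467 stood at 0.23 (adjusted p = 0.0571).

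Messenger RNAs of the proteins that process or bind such RNAs were called at a share near the background. Of 63 tested partner genes, 4 were called (6.35%), 1 higher and 3 lower, and none with the scan as a block. In the microRNA pathway, with 25 tested genes and a median of -0.00, the helicase DDX17, a DROSHA cofactor, rose by 0.30 (SE 0.04, adjusted p = 0.0315 in limma), and its other probe read 0.20. DIS3L2, an exonuclease that degrades tailed let-7 precursors, fell by 0.44 (SE 0.07, adjusted p = 0.0363) at its brightest probe, while its other probes ranged from 0.02 to 0.50, so its direction differs between probes. DGCR8, the RNA-binding partner of DROSHA, stood at -0.28 (adjusted p = 0.0539) and TARBP2, which partners DICER1, at -0.25 (adjusted p = 0.0531). One further gene was called at a probe other than its brightest, XPO5, the exporter of microRNA precursors, at -0.19 (adjusted p = 0.0437), and it was named after its values were seen.

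Of 22 tested paraspeckle and speckle genes, 2 fell and none rose at the brightest probe (9.09%, against 7.85% called over all named genes), and 3 genes were called at another probe. SFPQ, a core paraspeckle protein, read 12.83, 12.94 and 12.86 with IL-17A and 13.12, 13.19 and 13.22 in the controls. Every treated array was below every control, and SFPQ fell by 0.30 (SE 0.05, adjusted p = 0.0349 in limma). NUDT21, a subunit of a 3′ end processing factor, fell by 0.19 (SE 0.04, adjusted p = 0.0468), but its other probe was called in the opposite direction (0.22, adjusted p = 0.0464), so its direction is not settled. HNRNPH3, named after its values were seen, read 0.03 at its brightest probe (adjusted p = 0.630) and 0.33 at the other (adjusted p = 0.0430). RBM12 was at -0.15 at its brightest probe (adjusted p = 0.0784) and at -0.22 at the other, which was called (adjusted p = 0.0346). HNRNPK (-0.11, adjusted p = 0.109) was not called. Of the 16 nonsense-mediated decay factors, none was called in limma at its brightest probe. An unadjusted p under 0.05 there was found for 4 (4686 of 14747 over all named genes). These were SMG5 at -0.17 (adjusted p = 0.0939), UPF3A at 0.15 (adjusted p = 0.0945), DHX34 at 0.11 (adjusted p = 0.114) and SMG1 at 0.19 (adjusted p = 0.135). Another probe was called for 2 factors. SMG1 stood there at 0.21 (adjusted p = 0.0470) and UPF2, also named after its values were seen, at 0.38 (adjusted p = 0.0422). The brightest UPF2 probe read -0.04 (adjusted p = 0.831). SMG1 had 6 tested probes and UPF2 had 5, while the shares over all named genes count 1 probe per gene.

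Messenger RNAs listed from general knowledge as targets of the microRNAs shown above were called in 8 of 59 tested genes (13.6%), all 8 higher, against 4.37% higher over all named genes, with a median of 0.06 against 0.00. Of the 8, CCND2 was detected in the IL-17A group alone and so had to differ, and without it 7 of 58 were called. With CCND2 kept in the list, the count of 8 fell to 4 with 75th percentile scaling and 3 with the methods' t-test. It fell to 1 with the scan as a block, and to between 0 and 4 with 1 array left out. Of 23 tested targets of the MIR17HG cluster, 2 rose (8.70%), and none was called with the scan or the replicate as a block. TXNIP, an inhibitor of thioredoxin and glucose uptake, read 12.77 to 12.83 with IL-17A and 12.03 to 12.23 without, and rose by 0.67 (SE 0.06, adjusted p = 0.0251 in limma). TRAF3, an inhibitor of noncanonical NF-κB signaling, rose by 0.24 (SE 0.04, adjusted p = 0.0372). BTG1 (0.16, adjusted p = 0.0668) and MAP3K8 (0.15, adjusted p = 0.0949) were not called.

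Of 22 tested targets of miR-155, 3 rose (13.6%, against 4.37% of all named genes), and none was called with the methods' t-test or with the scan as a block. ETS1, a lymphoid transcription factor, rose by 0.33 (SE 0.07, adjusted p = 0.0475 in limma), GCSAM by 0.23 (SE 0.05, adjusted p = 0.0474) and the zinc finger factor HIVEP2 by 0.21 (SE 0.04, adjusted p = 0.0468). FOXO3, a transcription factor held back by AKT, stood at 0.18 (adjusted p = 0.0592).

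Of the 13 targets of miR-15 and miR-16 tested besides CCND2, 2 rose (15.4%, against 4.37% of all named genes). CCND2, which encodes cyclin D2, read 2.88, 2.82 and 2.80 with IL-17A and 0, 0.46 and 0 in the controls. It was well above background on all treated arrays and on no control array, which is at least 1.80-fold higher, given as a description with no test. VEGFA, an angiogenic growth factor, rose by 0.24 (SE 0.05, adjusted p = 0.0475 in limma), and SMAD7, an inhibitor of TGF-β signaling, by 0.22 (SE 0.04, adjusted p = 0.0458). CDK6, a partner of D-type cyclins, stood at 0.21 (adjusted p = 0.0516).

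**Figure D4:**
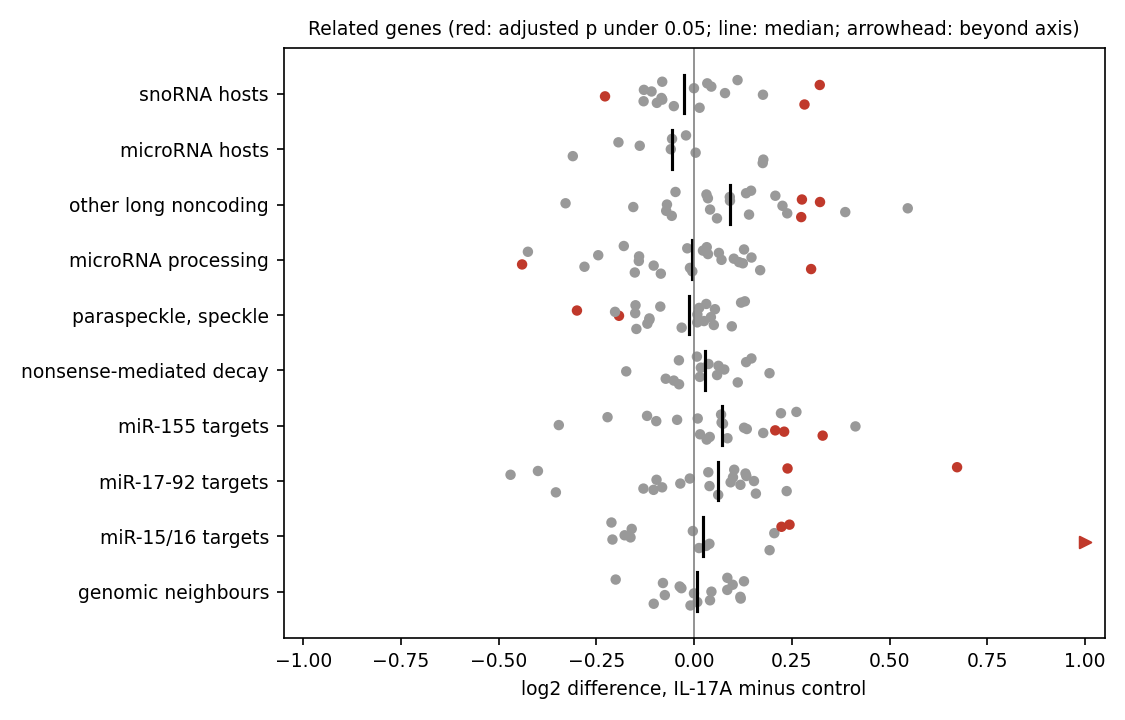
Log2 difference, IL-17A minus control, of each tested gene in 10 related lists; red points were called (adjusted p under 0.05), a short line marks each list's median, and the arrowhead is CCND2, whose fitted value lies beyond the axis because its control signal was not above background. List medians lie between -0.06 and 0.09, and the 7 target genes called besides CCND2 lie above 0.

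None of 17 tested genomic neighbours was called in limma. An unadjusted p under 0.05 was found for 2, against 4686 of the 14747 tested named genes. For the measured transcripts, MYC, next to PVT1, was at 0.04 (adjusted p = 0.449). WDR74, next to SNHG1, was at -0.20 (adjusted p = 0.0954) and SLC3A2 on the other side at -0.03 (adjusted p = 0.827). ZBTB37, which overlaps GAS5, was at 0.09 (adjusted p = 0.301). Beside MALAT1, FRMD8 was at 0.01, with another FRMD8 probe at 0.37. MRPL39, after MIR155HG, was at -0.00 (adjusted p = 0.997). Of the coding neighbours of MIR17HG, GPC5 was listed but not tested, and SLITRK5 was not in the list.

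The labelled cell type was checked with markers. All 10 B-lineage markers were well above background on all 6 arrays, and their summed signal was 71712 to 73200 with IL-17A and 65601 to 69838 in the controls, without overlap. Of the T and NK markers, CD2, CD3D, CD3E and CD3G were above background on all arrays at low summed signal (159 to 172 against 150 to 165), and NCAM1 on none. CD3E was called lower, at -0.46 (adjusted p = 0.0401 in limma), while CD2 stood at 0.51 (adjusted p = 0.0539). Both were dim, with group means of 2.65 to 3.24 in log2 signal. CD3G at 0.12 and CD3D at -0.11 were not called, so the list shows no single direction. Of the monocyte markers CD14 was above background on all arrays (36.8 to 38.5 against 36.1 to 41.0 summed over the list), and CD163 and CSF1R on none. Of the mesenchymal markers COL1A1 was above background on all arrays and PDGFRB on 2 of each group, and COL1A2, COL3A1 and THY1 on none, with summed signals of 20.5 to 25.6 and 18.8 to 28.5. The part of these marker differences in the results above was not tested. GAPDH was at 0.01 (adjusted p = 0.943) and the ACTB probes at -0.10 and -0.07.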

How the data were processed

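Per the file headers, the authors' arrays (Agilent 4x44K format, annotated on hg19) were extracted with Agilent Feature Extraction 11.0.1.1. The deposited scanner files hold, for each spot, an intensity on a linear scale with background subtracted and no normalization between arrays, together with 0 or 1 quality flags. A deposited table of log2 values, quantile normalized by the authors, served as an alternative.

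Control spots and nonuniform spots (4 to 25 per array) were left out, signals under 1 were set to 1, log2 was taken, spots were averaged per probe and quantile normalization was applied, following the methods. Of 34127 probes, 25771 received a gene name by matching RefSeq accessions to the GRCh38.p14 gene table, 8356 stayed unnamed, and 830 probes carried a RefSeq accession absent from that table. Probes detected on at least 3 arrays were tested with limma 3.58.1 (R 4.3.3), two-sided and without covariates, a procedure that was tested on simulated data. A gene's brightest tested probe represented it in lists.

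The members and lists were chosen with earlier results of these data known. Named were every member probe, up to 4 genes of lowest p per list, neighbours, markers, GAPDH and ACTB. Some neighbours are not reported here. Alternatives were 75th percentile scaling, normexp (offset 50, on median spot and local background signals), the authors' values, other detection filters, the methods' t-test, replicate and scan blocks (arrays that share a scan identifier in the file headers), each array left out, and the mean of a gene's probes. The replicate numbers did not pair the samples (correlations of deviations -0.0871, -0.0022 and -0.0466).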

Additional observations from a re-analysis of the deposited data

How the results depend on the processing

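MALAT1 and SNHG1 kept their direction and stayed uncalled in all 14 alternatives, and MIR17HG kept its direction but lost its call in 9. Another detection filter, the t-test and the replicate block leave a difference unchanged, so direction could not turn in those settings. The differences that turned sign were GAS5 at -0.0587 with 75th percentile scaling, PVT1 probe A_33_P3248227 at 0.0035 with normexp, and PVT1 probe A_33_P3357748 at 0.015 with normexp and 0.014 with the scan as a block. The cause was not tested.

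The count of called member probes (1 as reported) was 0 with 75th percentile scaling, the replicate block, the scan as a block and each array left out (0 to 0). At the fold-change filter of the methods it went from 0 to 1, MIR155HG, with no detection filter, where its adjusted p was 0.0950 with dim signals taken as measured, and was 0 to 0 with an array left out. The replicate block left 0 calls among other noncoding transcripts (6 as reported), partners (4) and targets (8). The scan block left 0, 0 and 1. Testing probes detected on all 6 arrays gave 10 noncoding and 9 partner calls, and normexp and the mean of a gene's probes gave 9 and 11 partner calls. With 75th percentile scaling 2 partners and 4 targets were called, and targets were 4 with no filter and 3 with the methods' t-test. The share called over all tested probes, 7.59% as reported, differed between these settings too. It was 11.2% with detection on all 6 arrays and 8.52% with normexp. It was 5.72% with 75th percentile scaling, 4.15% with no filter and 5.21% with the methods' t-test. No such share is given for the mean of a gene's probes. With 1 array left out, calls ranged from 0 to 7, 0 to 1 and 0 to 4. Over all probes, 1818 calls became 4 with the replicate block, 48 with the scan block and 0 to 1262 with an array left out, the highest without control replicate 3.

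Normalization between arrays assumes similar overall signal, and the dim probe of MIR155HG gives no fold change.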
